A study of Xenopus laevis with 36 samples.

Results

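The genes described here are interleukins and interleukin receptors of the frog *X. laevis*, as far as the count table names them so. They were taken as the rows of the count table whose name, in lower case, begins with il and a digit, with *il34* left out because IL34 was itself injected. Interleukin genes that the table holds under other names are therefore absent, whatever their level. The paper reports on *il17re.l*, *il18.2.s* and *il23r* in these wounds, and no row of these names met the rule. Of 42257 rows that name a gene, 59 met this rule with at least 10 counts over all libraries, and 56 of these 59 were among the 28225 rows that reached 0.5 CPM (counts scaled to a common library size) in at least 10 libraries and were tested. The frog carries a pair of related subgenomes, so that many genes have an L and an S copy, and these were kept apart, as were rows that share a name (3 rows named *IL5RA*, 2 named *IL12RB2* and 2 named *IL2RB*).

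All frogs were juveniles of the WT genotype that had received a full-thickness biopsy punch wound of the dorsal skin and a single subcutaneous injection near it at 3 days post wounding (dpw). The injection held recombinant frog CSF1 (rCSF1), recombinant frog IL34 (rIL34), or rctrl, the material purified in the same way from Sf9 insect cells carrying the empty vector. Wounds were collected at 7 and 14 dpw, giving rCSF1, rIL34 and rctrl groups at each time with 6 libraries per group, and every group shared the wound and the injection. CSF1 and IL34 are the ligands of the CSF1 receptor on macrophages, and the study asked how wounds enriched in macrophages of either kind differ. The labels do not say whether each library came from a separate frog, so p-values measure only the spread between these libraries, and in whole wounds fewer cells of a type cannot be told apart from less RNA per cell.

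Total counts were 22435798 to 34868292 per library (median 29370148). The labelled tissue is skin, and epidermal marker rows summed to between 2036 and 11170.0 CPM in all 36 libraries. Replicates 2 and 5 of rCSF1 at 7 dpw stood apart from all other libraries, with neutrophil marker rows summing to 10920.0 and 7390.0 CPM against 844.6 to 2080.0 CPM in the other 4 libraries of that group. Counts of interleukin and pathway rows called after rCSF1 at 7 dpw are also given without these replicates. So are values or ranges for interleukin rows whose calls against rctrl at 7 dpw rest on them. In other comparisons such values are given for some rows only. Leaving these replicates out was chosen after seeing the data. Shares of all tested rows are given for the fit of all 36 libraries. Counts under other settings have no such share beside them, so a loss of calls cannot be set against that of other genes. At 14 dpw, rCSF1 replicates 1, 2 and 6 held skeletal muscle marker RNA at 1600.0 to 15640.0 CPM, against 49.2 to 73.1 CPM in the other 3.

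Interleukins are secreted proteins by which immune cells and epithelia signal to each other, and their receptors are surface chains that work in pairs or larger complexes. IL1 and IL18 receptors belong to the Toll and IL1 receptor superfamily and signal through MYD88 and IRAK kinases, IL17 receptors signal through the adaptor TRAF3IP2, and most other interleukin receptors signal through JAK kinases and STAT factors. In skin, IL1B drives early neutrophil entry after injury, IL17C is made by keratinocytes, IL10 restrains inflammation, and IL4 and IL13 act on macrophages and fibroblasts during repair. Roles stated below are those established in mammals, and a row is called by the name that the table gives it.

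The 3 rows that did not pass the filter on low values were ligands. *il10.L* and *il10.S*, both copies of the anti-inflammatory IL10, held 359 and 188 counts over all 36 libraries, and *il21.S*, encoding a T cell cytokine that acts on B cells, held 112. They were not tested. The 56 tested rows comprised 9 ligand rows (*il1b*, *il17c* and *il17d* with both copies, *il6.L*, *il11.S* and *il12b.S*), 45 receptor or decoy rows, and *il16.L* and *il4i1.L*, whose products are neither interleukin receptors nor members of the other ligand families.

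In rctrl wounds most interleukin rows were lower at 14 than at 7 dpw. Of the 56 rows, 33 were lower and 8 were higher at 14 than at 7 dpw, and 15 did not pass the test (edgeR quasi-likelihood test, adjusted p under 0.05), where 26.4% and 22.9% of all tested rows were called lower and higher. The median log2 fold change of the interleukin rows was -1.10, against -0.01 over all tested rows. The 6 libraries of each time did not overlap for 28 of the 33 rows that were lower, for *IL18BP*, which was not called, and for 6 of the 8 that were higher (17.8% and 14.3% of all tested rows were lower and higher with no overlap). Both ligand copies of *il1b* fell, the IL18, IL5 and gamma chain receptors fell nearly throughout, and 5 of the 8 rows that rose belonged to the IL17 family. Of these 5, *il17d.L* passed the filter on low values through its 14 dpw libraries. The plot of day 14 over day 7 in rctrl wounds gives all 56 rows by role.

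**Figure D1:**
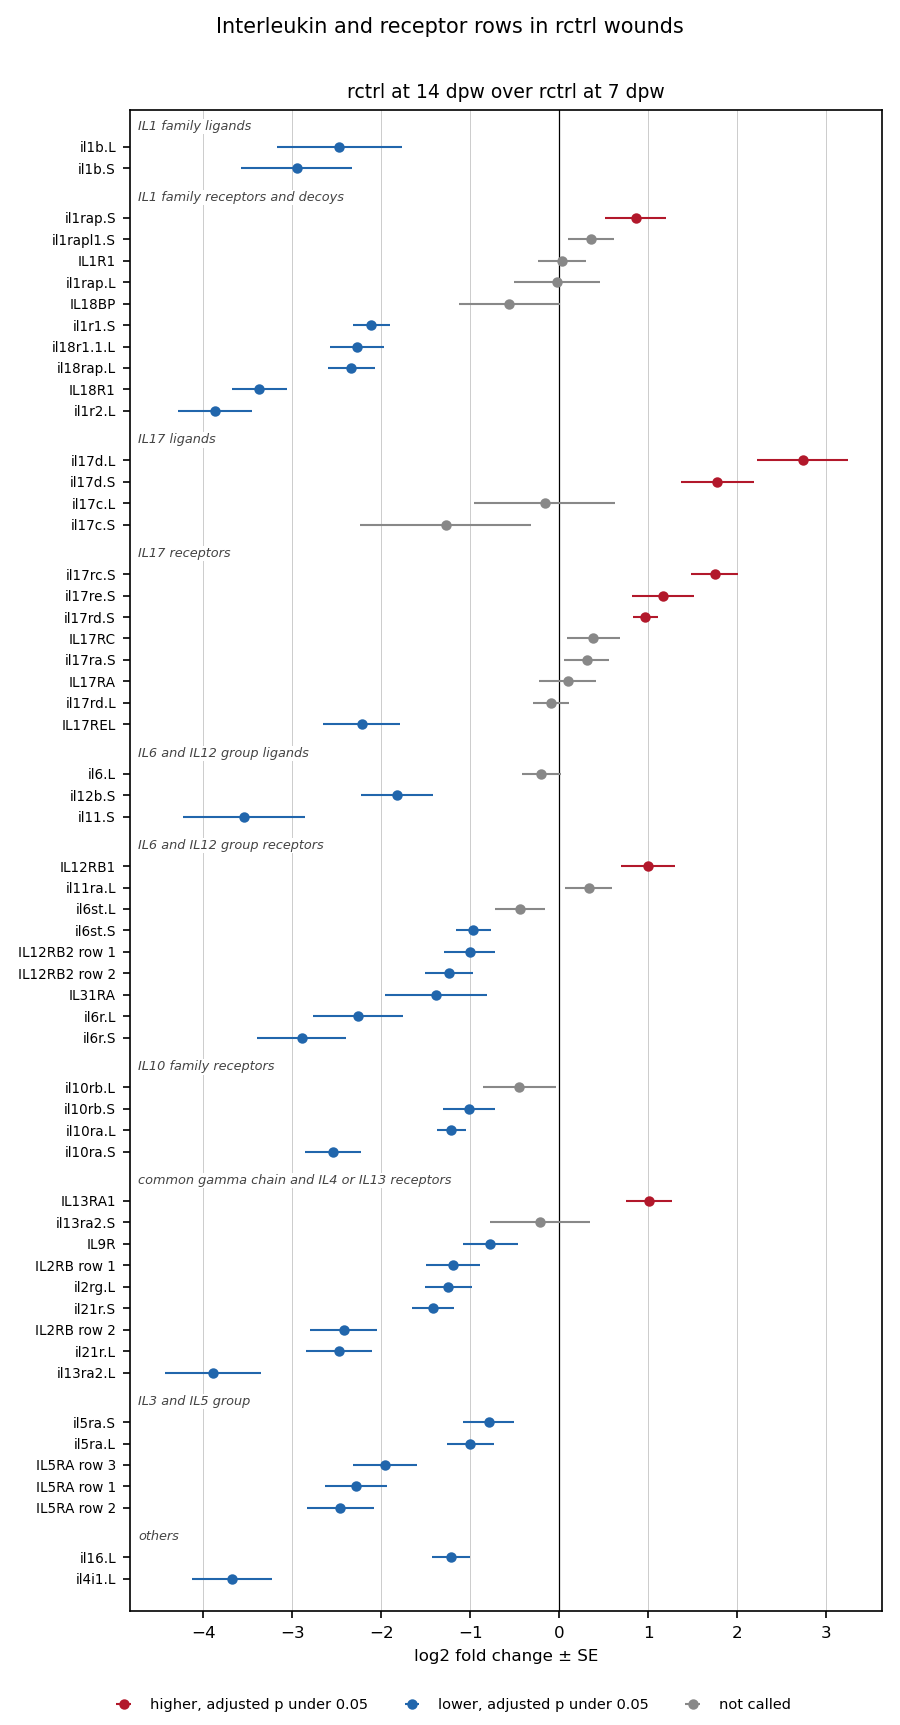
Log2 fold change at 14 over 7 dpw in rctrl wounds for the 56 tested interleukin rows, grouped by role, with bars for ± 1 SE over 6 libraries per time. Red points are rows called higher, blue points rows called lower, and grey points rows that did not pass. Points lie left of 0 for the IL1 ligands, the IL10 receptors and the IL3 and IL5 group, and the 8 red points right of 0 include *il17d.L* at 2.74 and *il17rc.S* at 1.75. The row *il17d.L* passed the filter on low values through its 14 dpw libraries.

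Among IL1 family genes, the ligand *il1b.L* lay at 0.309 to 1.23 CPM (median 0.725) at 14 dpw, against 3.57 to 5.09 CPM (median 4.36) at 7 dpw (log2 fold change -2.47 ± 0.70 (SE), adjusted p = 0.0039). *il1r2.L*, whose product is a decoy that binds IL1 without signaling, lay at 1.89 to 3.88 CPM (median 3.38) at 14 dpw, against 24 to 84.5 CPM (median 38.6) at 7 dpw (log2 fold change -3.87 ± 0.42 (SE), adjusted p = 5.2e-09). No library of either gene at 14 dpw reached the lowest library at 7 dpw. The signaling receptor row *il1r1.S* fell as well, at 11.8 to 16.4 CPM (median 14.4) against 35.7 to 90.7 CPM (median 60.0) (log2 fold change -2.11 ± 0.21 (SE), adjusted p = 1e-09). The other row named for this receptor, *IL1R1*, did not pass, at 9.68 to 15.2 CPM at 14 dpw against 5.24 to 19.3 CPM at 7 dpw. All 3 rows for the IL18 receptor fell. *IL18R1*, the ligand-binding chain, had 1.24 to 2.66 CPM (median 2.39) at 14 dpw and 13.4 to 38.2 CPM (median 21.2) at 7 dpw (log2 fold change -3.37 ± 0.31 (SE), adjusted p = 2.9e-10). The log2 fold change was -2.27 (adjusted p = 2e-07) for *il18r1.1.L* and -2.34 (adjusted p = 1.3e-08) for the accessory chain *il18rap.L*. *IL18BP*, which encodes a secreted protein that neutralizes IL18, did not pass the test at -0.56 (adjusted p = 0.43). The shared accessory chain gave different calls by copy. *il1rap.S* rose to 93.6 to 117 CPM (median 103) at 14 dpw, against 44.4 to 80.0 CPM (median 49.6) at 7 dpw (log2 fold change 0.86 ± 0.34 (SE), adjusted p = 0.036), and *il1rap.L* was at -0.02 (adjusted p = 0.97). The call of *il1rap.S* was lost when any one of rctrl replicates 3, 4, 5 and 6 at 7 dpw or 1 and 5 at 14 dpw was left out, with log2 fold changes of 0.80 to 0.85 and adjusted p of 0.055 to 0.073. Over all its alternatives it was at 0.80 to 0.98 (adjusted p 0.00014 to 0.073).

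IL17 family genes more often rose. Among them were both copies of the ligand gene *il17d*. *il17d.S* lay at 2.27 to 3.62 CPM (median 2.84) at 14 dpw, against 0.368 to 1.5 CPM (median 0.705) at 7 dpw (log2 fold change 1.78 ± 0.41 (SE), adjusted p = 0.00058). *il17d.L* lay at 0.274 to 1.65 CPM (median 0.693) at 14 dpw, against 0.0353 to 0.171 CPM (median 0.13) (log2 fold change 2.74 ± 0.51 (SE), adjusted p = 3.9e-05). Of all 7 dpw libraries only rIL34 replicate 1 reached 0.5 CPM for *il17d.L*, at 0.74 CPM. The row thus passed the filter on low values through the 14 dpw libraries, where it was high. *il17rc.S*, a receptor chain for IL17A and IL17F, was higher in every library at 14 dpw, at 75.8 to 148 CPM (median 127) against 17.5 to 64.1 CPM (median 33.3) at 7 dpw (log2 fold change 1.75 ± 0.27 (SE), adjusted p = 2e-06). *il17re.S*, the receptor chain that binds IL17C, lay at 23.3 to 59.5 CPM (median 38.5) against 9.02 to 30.9 CPM (median 14.5) (log2 fold change 1.17 ± 0.35 (SE), adjusted p = 0.0063), with some overlap of the libraries. *il17rd.S*, known also as an inhibitor of FGF signaling, lay at 15.6 to 24.2 CPM (median 20.4) against 9.55 to 11.5 CPM (median 9.95) (log2 fold change 0.97 ± 0.14 (SE), adjusted p = 7.4e-07). *IL17REL* was the IL17 receptor row that fell, with 1.72 to 6.18 CPM (median 3.54) at 14 dpw and 7.45 to 28.2 CPM (median 19.3) at 7 dpw (log2 fold change -2.22 ± 0.43 (SE), adjusted p = 7.6e-05). Of the other IL17 rows, both copies of *il17c* and the receptor rows *IL17RA*, *il17ra.S*, *IL17RC* and *il17rd.L* did not pass.

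In the IL6 and IL12 group, *il11.S*, encoding a ligand of the gp130 receptor, lay at 0.0318 to 0.263 CPM (median 0.196) at 14 dpw, against 1.2 to 4.51 CPM (median 1.61) at 7 dpw (log2 fold change -3.54 ± 0.68 (SE), adjusted p = 6.7e-05). It passed the filter on low values mainly through the 7 dpw libraries, where it was high. *il12b.S*, the subunit shared by IL12 and IL23, lay at 0.673 to 1.91 CPM (median 0.767) at 14 dpw, against 0.855 to 4.59 CPM (median 3.76) at 7 dpw (log2 fold change -1.82 ± 0.40 (SE), adjusted p = 0.00034). The groups overlapped through replicate 6 of each time, the highest library at 14 dpw and the lowest at 7 dpw. *il6.L* did not pass, at -0.20 (adjusted p = 0.48). Among receptor rows, both copies of the IL6-binding chain fell, *il6r.S* at -2.89 (adjusted p = 1.5e-05) and *il6r.L* at -2.26 (adjusted p = 0.00042). Of gp130 itself, *il6st.S* fell to 45.9 to 60.8 CPM (median 52.2) at 14 dpw, against 87 to 118 CPM (median 101) at 7 dpw (log2 fold change -0.97 ± 0.20 (SE), adjusted p = 0.00015), and *il6st.L* was at -0.44 (adjusted p = 0.2). Both *IL12RB2* rows, named for the second chain of the IL12 receptor, fell, at -1.01 (adjusted p = 0.0041) and -1.24 (adjusted p = 0.00025). *IL12RB1*, the chain shared by the IL12 and IL23 receptors, rose instead, to 5.76 to 22.2 CPM (median 13.8) at 14 dpw, against 5.61 to 8.59 CPM (median 7.17) at 7 dpw (log2 fold change 1.00 ± 0.30 (SE), adjusted p = 0.0063).

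The lymphocyte and type 2 receptors fell widely. *il2rg.L*, the common gamma chain, *IL2RB*, the chain that IL2 and IL15 share, *il21r* and *IL9R* gave 6 rows, and all 6 fell, from -2.48 for *il21r.L* to -0.77 for *IL9R*. *il21r.L* lay at 0.468 to 2.32 CPM (median 1.45) at 14 dpw, against 4.55 to 10.5 CPM (median 8.73) at 7 dpw (log2 fold change -2.48 ± 0.37 (SE), adjusted p = 1.6e-06). The second *IL2RB* row lay at 0.795 to 1.88 CPM (median 0.964) at 14 dpw, against 2.73 to 9.47 CPM (median 6.14) (log2 fold change -2.42 ± 0.38 (SE), adjusted p = 3.3e-06). Among the largest falls, close to that of *il1r2.L*, was that of *il13ra2.L*, the IL13 decoy receptor, with 1.49 to 7.58 CPM (median 2.02) at 14 dpw and 31.2 to 78.8 CPM (median 38.3) at 7 dpw (log2 fold change -3.89 ± 0.54 (SE), adjusted p = 4.9e-07). *IL13RA1*, which pairs with the IL4 receptor chain to signal for IL4 and IL13, rose instead, to 184 to 253 CPM (median 188) at 14 dpw, against 62.8 to 145 CPM (median 93.5) at 7 dpw (log2 fold change 1.01 ± 0.26 (SE), adjusted p = 0.0016). All 5 rows for the IL5-binding chain fell, with the 3 *IL5RA* rows at -2.28, -2.46 and -1.96, *il5ra.L* between these and 0, and *il5ra.S* at -0.79. The second *IL5RA* row lay at 3.98 to 8.18 CPM (median 5.74) at 14 dpw, against 22.8 to 50.2 CPM (median 29.9) at 7 dpw (log2 fold change -2.46 ± 0.38 (SE), adjusted p = 2.2e-06). *il10ra.S* and *il10ra.L*, copies of the IL10-binding chain, fell by different amounts, at -2.54 (adjusted p = 7.7e-08) and -1.21 (adjusted p = 3.2e-07). *il4i1.L*, encoding a secreted oxidase that breaks down phenylalanine and restrains T cells, lay at 1.81 to 14.5 CPM (median 4.88) at 14 dpw, against 47.8 to 122 CPM (median 80.0) at 7 dpw (log2 fold change -3.68 ± 0.45 (SE), adjusted p = 4.8e-08). *il16.L*, a T cell attractant, was at -1.21 (adjusted p = 1.5e-05).

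The calls of 3 further rows were lost without single rctrl libraries. *IL9R* lost its call without replicates 2, 4 or 6 at 7 dpw or 1, 4 or 5 at 14 dpw, and was at -0.85 to -0.63 (adjusted p 0.0064 to 0.1) over all alternatives. *il5ra.S* lost it without replicate 3 at 7 dpw or 5 at 14 dpw (-0.86 to -0.65 (adjusted p 0.0026 to 0.071)). *IL31RA*, a receptor chain for IL31, lost it without replicates 2, 3 or 6 at 7 dpw or 1, 3, 4, 5 or 6 at 14 dpw (-1.72 to -1.11 (adjusted p 0.0033 to 0.12)). Most leukocyte markers fell over the same interval: 12 of 12 neutrophil, 8 of 9 macrophage, 15 of 15 T and NK cell and 8 of 8 B cell marker rows were lower at 14 dpw. Neutrophil rows summed to 134 to 238 CPM at 14 dpw against 659.5 to 1194 CPM at 7 dpw, and macrophage rows to 75 to 161 against 496 to 772 CPM. T and NK cell rows summed to 31.1 to 49.6 against 92 to 219 CPM, and B cell rows to 4.85 to 10.3 against 13 to 53.4 CPM. Mast cell rows went the other way, at 68.0 to 106.3 CPM (median 93.2) against 50.8 to 74.9 CPM (median 60.3). The mast cell list had no row for *cpa3* or *hdc*, so its sums rest on *kit* and *gata2* alone and do not settle whether mast cells rose. Of 12 epidermal marker rows 7 were higher and 1 was lower, at 4311 to 7158 against 2036 to 5380.0 CPM. No leukocyte marker row was at 0 in all libraries, and the part of these cells in the interleukin changes was not tested.

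At 7 dpw, the question of the design is how each cytokine altered the wound. After rCSF1, 17 of the 56 interleukin rows were higher and 2 were lower than in rctrl wounds, and 37 did not pass, where 20.4% and 14.1% of all tested rows were called higher and lower. The median log2 fold change was 0.17, against -0.03 over all tested rows. The rows that rose were both copies of *il1b*, the *il1rap* pair, *IL18BP*, 5 of 8 IL17 receptor rows, *il17c.S*, *il11.S*, both copies of gp130, both copies of *il10rb* and *il13ra2.S*. The rises were not even over libraries, since replicates 2 and 5 gave the highest values of most of these rows, and without those 2 libraries 6 rows were higher and 1 was lower. The share of all tested rows without them is not given. Libraries of the groups did not overlap for 3 rows that were higher and 1 that was lower (3.75% and 2.69% of all tested rows).

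*il1b.L* lay at 7.12 to 320.1 CPM (median 24.2) in rCSF1-treated wounds, against 3.57 to 5.09 CPM (median 4.36) in rctrl wounds (log2 fold change 4.53 ± 0.71 (SE), adjusted p = 2.8e-05). *il1b.S* lay at 11.4 to 192 CPM (median 26.1) after rCSF1, against 3.52 to 13.6 CPM (median 7.05) after rctrl (log2 fold change 3.12 ± 0.60 (SE), adjusted p = 0.00021). All 6 rCSF1 libraries of *il1b.L* exceeded all rctrl libraries, and those of *il1b.S* overlapped with them. Without replicates 2 and 5, *il1b.L* was at 1.90 (adjusted p = 0.0076) and *il1b.S* at 1.40 (adjusted p = 0.057). *IL18BP* had 3.26 to 77.7 CPM (median 13.3) in rCSF1-treated wounds and 2.94 to 4.55 CPM (median 3.03) in rctrl wounds (log2 fold change 3.22 ± 0.59 (SE), adjusted p = 0.00013), and its log2 fold change without these libraries was 1.35 (adjusted p = 0.049). The accessory chain rows lost their calls without them. *il1rap.L* lay at 39.5 to 931 CPM (median 199), against 41.7 to 132 CPM (median 79.2) in rctrl wounds (log2 fold change 2.19 ± 0.50 (SE), adjusted p = 0.0011), and was at 0.57 (adjusted p = 0.36) without the pair. *il1rap.S* was at 1.70 (adjusted p = 0.00039) with them and at 0.35 (adjusted p = 0.23) without. The signaling receptor rows *il1r1.S* and *IL1R1*, the decoy *il1r2.L* and the 3 IL18 receptor rows did not pass, with log2 fold changes between -0.22 for *il18r1.1.L* and 0.22 for *IL1R1*.

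All 8 IL17 receptor rows had a positive log2 fold change after rCSF1, and 5 of them passed. *il17re.S* lay at 21.9 to 162 CPM (median 41.9) in rCSF1-treated wounds, against 9.02 to 30.9 CPM (median 14.5) in rctrl wounds (log2 fold change 1.93 ± 0.36 (SE), adjusted p = 0.00015), and without replicates 2 and 5 it was at 0.92 (adjusted p = 0.026). *IL17RA*, named for the chain that all IL17 receptor complexes share, was at 1.49 (adjusted p = 0.00058) and at 0.87 (adjusted p = 0.05) without the pair, while *il17ra.S* was at 0.91 (adjusted p = 0.0053) and 0.56 (adjusted p = 0.15). *il17rd.S* rested little on the pair. It lay at 13.6 to 25.4 CPM (median 21.7), against 9.55 to 11.5 CPM (median 9.95) in rctrl wounds, with no overlap (log2 fold change 1.04 ± 0.14 (SE), adjusted p = 1e-05), and was at 0.96 (adjusted p = 0.00031) without them. *IL17RC* was at 1.01 (adjusted p = 0.0088), and at 0.75 (adjusted p = 0.057) without replicate 2 alone and 0.36 (adjusted p = 0.43) without the pair. The ligand row *il17c.S* spanned 0.12 to 15.1 CPM (median 3.37) in rCSF1-treated wounds, against 0.11 to 1.64 CPM (median 0.294) in rctrl wounds (log2 fold change 2.85 ± 0.93 (SE), adjusted p = 0.016). Without replicate 2 it was at 2.02 (adjusted p = 0.097), within a range of 1.48 to 3.36 (adjusted p 0.0037 to 0.32) over its alternatives. The row passed the filter on low values mainly through 7 dpw libraries, those of rCSF1 among them.

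The IL10 receptor rows split by chain. *il10rb.L*, the accessory chain that the IL10 and IL22 receptors share, lay at 9.97 to 118 CPM (median 33.6) in rCSF1-treated wounds, against 3.28 to 8.64 CPM (median 6.85) in rctrl wounds (log2 fold change 3.01 ± 0.43 (SE), adjusted p = 1.5e-05). The groups did not overlap, and the row was at 1.78 (adjusted p = 0.00081) without replicates 2 and 5. *il10rb.S* was at 1.12 (adjusted p = 0.0029), and at 0.42 (adjusted p = 0.29) without them. The ligand-binding chain did not pass, at 0.12 (adjusted p = 0.6) for *il10ra.L* and -0.61 (adjusted p = 0.11) for *il10ra.S*. In the gp130 group, *il6st.L* was at 1.16 (adjusted p = 0.0021) and *il6st.S* at 0.74 (adjusted p = 0.0043), and neither passed without the pair of libraries, at 0.24 (adjusted p = 0.46) for *il6st.L* and 0.20 (adjusted p = 0.43) for *il6st.S*. The ligand *il11.S* lay at 2.04 to 16.8 CPM (median 7.15), against 1.2 to 4.51 CPM (median 1.61) in rctrl wounds (log2 fold change 1.82 ± 0.59 (SE), adjusted p = 0.016). *il13ra2.S* lay at 0.67 to 24.2 CPM (median 2.8) after rCSF1, against 0.848 to 2.7 CPM (median 1.63) after rctrl (log2 fold change 2.08 ± 0.57 (SE), adjusted p = 0.0048). Without replicate 2 alone these were at 1.38 (adjusted p = 0.085) and 1.25 (adjusted p = 0.072). Without the pair *il11.S* was at 1.37 (adjusted p = 0.15), and *il13ra2.S* at 0.12 (adjusted p = 0.9). Over all alternatives *il11.S* was at 1.37 to 2.19 (adjusted p 0.0076 to 0.15) and *il13ra2.S* at 0.12 to 2.32 (adjusted p 0.00064 to 0.9).

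The 2 rows that fell after rCSF1 were *il4i1.L* and *il16.L*. *il4i1.L* lay at 15.4 to 34.2 CPM (median 28.7) in rCSF1-treated wounds, against 47.8 to 122 CPM (median 80.0) in rctrl wounds, with no overlap (log2 fold change -1.52 ± 0.41 (SE), adjusted p = 0.0046). Its value was -1.66 (adjusted p = 0.021) without replicates 2 and 5. *il16.L* was at -0.64 (adjusted p = 0.017), and at -0.52 (adjusted p = 0.061) without replicate 5, within -0.77 to -0.35 (adjusted p 0.0053 to 0.2) over its alternatives. No row for the IL5-binding chain passed, and 1 of the 9 gamma chain and IL4 or IL13 receptor rows did, *il13ra2.S*. Of the marker rows, 4 of 12 neutrophil rows were higher after rCSF1, with sums of 845 to 10920.0 against 659.5 to 1194 CPM, and 10 of 12 epidermal rows were higher (3320.0 to 11170.0 against 2036 to 5380.0 CPM). Of the others, 6 of 11 fibroblast rows were lower (1537 to 12930.0 against 6322 to 9555 CPM). Of T and NK cell rows 2 of 15 were lower (48 to 163 against 92 to 219 CPM), near the 14.1% of all tested rows called lower. Replicates 2 and 5 were at both ends of these ranges, highest for neutrophil and lowest for fibroblast markers, and the part of such cells in the interleukin values was not tested. In the other 4 rCSF1 libraries neutrophil rows summed to 845 to 2080 CPM and epidermal rows to 3320 to 6540 CPM. Their fibroblast rows summed to 7790 to 12900 CPM, against 6322 to 9555 CPM in rctrl wounds. Counts of called marker rows without replicates 2 and 5 are not given. Macrophage rows summed to 156 and 257 CPM in these 2 libraries and to 350.0 to 777 CPM in the other 4 rCSF1 libraries, against 496 to 772 CPM in rctrl wounds. Endothelial rows summed to 295 and 279 CPM in the pair and to 40.9 to 124 CPM in the other 4, against 25.7 to 71.6 CPM in rctrl wounds, and the part of both cell types was not tested either.

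**Figure D2:**
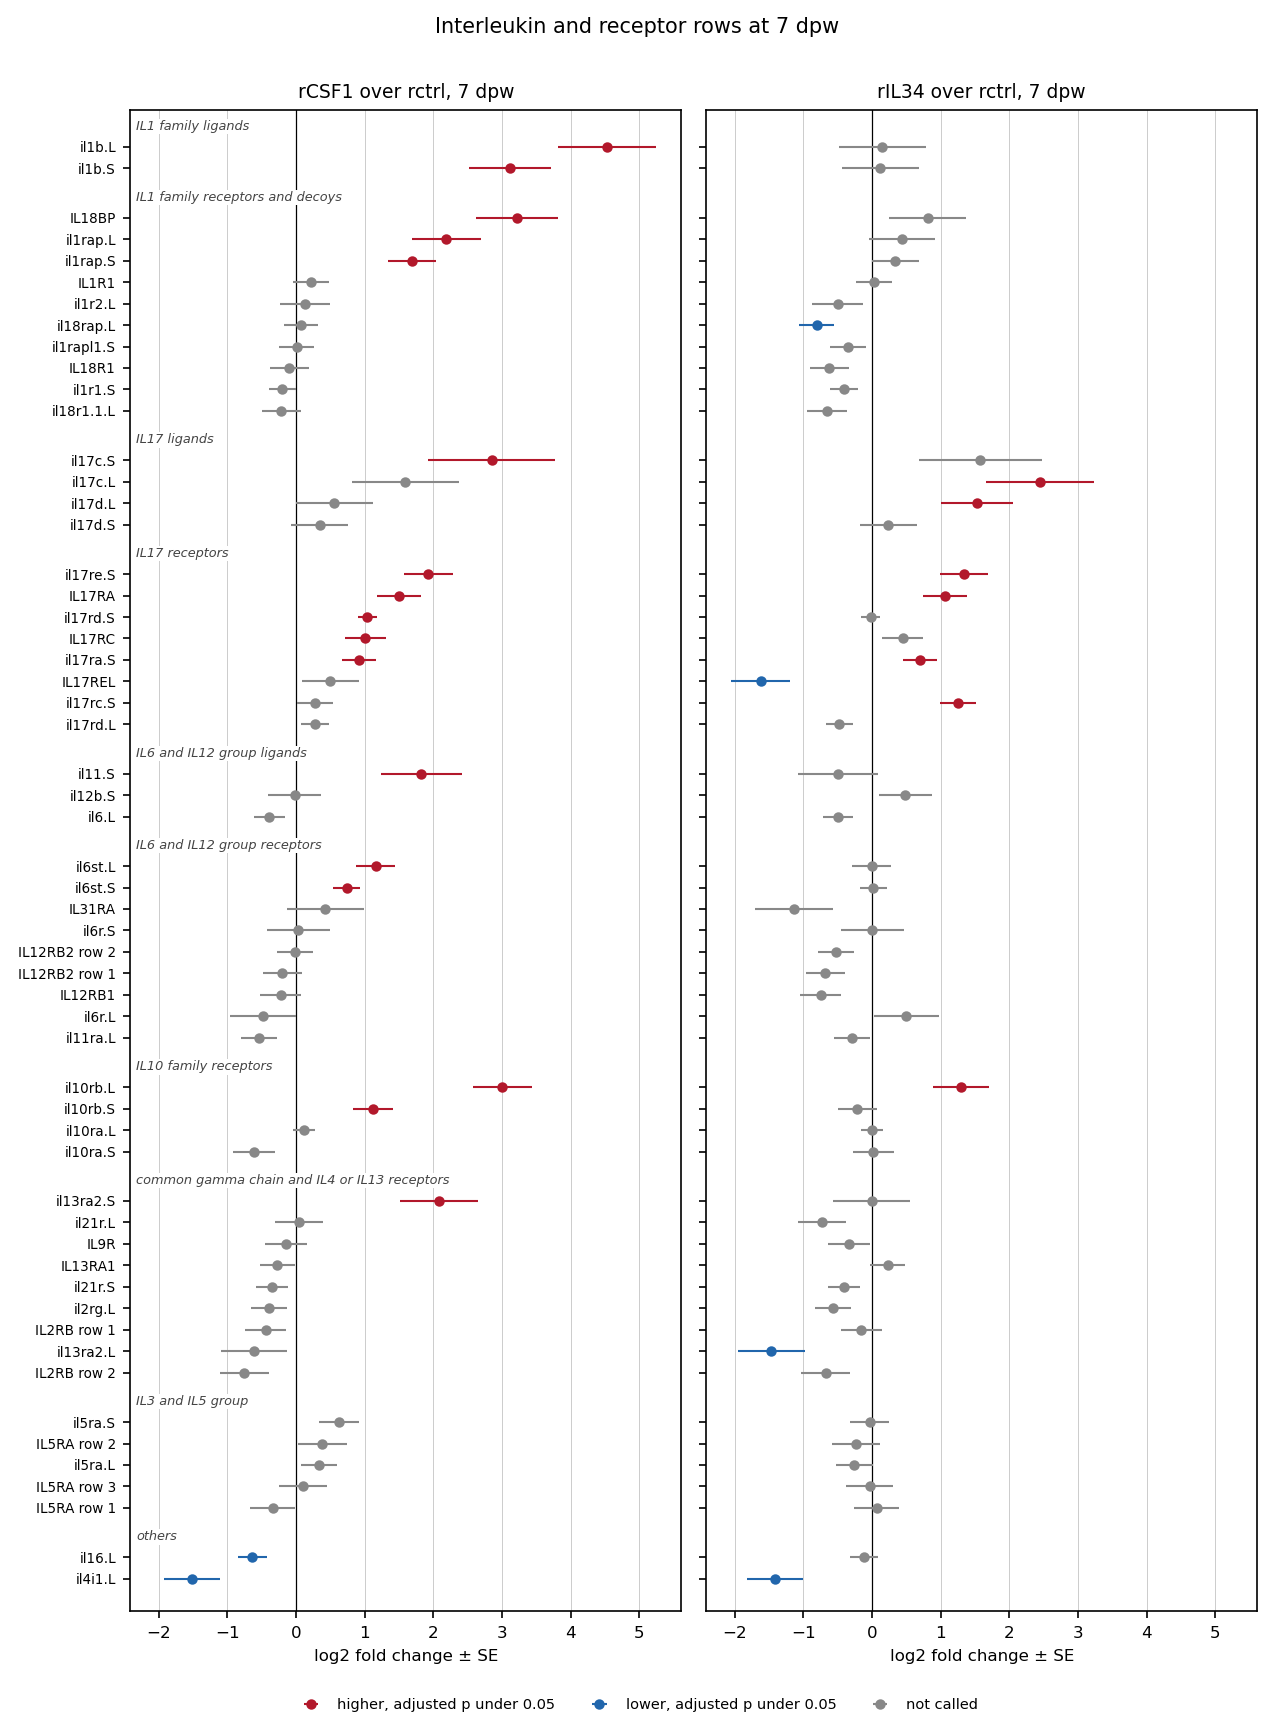
Log2 fold change over rctrl at 7 dpw for the 56 tested interleukin rows, with rCSF1 on the left panel and rIL34 on the right, and bars for ± 1 SE. Red points are rows called higher, blue points rows called lower, and grey points rows that did not pass. The 17 red points right of 0 on the rCSF1 panel reach 4.53 for *il1b.L*, while the 7 on the rIL34 panel end at 2.44 for *il17c.L*.

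After rIL34, 7 interleukin rows were higher and 4 were lower than in rctrl wounds at 7 dpw, and 45 did not pass, where 15.8% and 11.2% of all tested rows were called higher and lower. The median log2 fold change was -0.03, against -0.01 over all tested rows. The rows that rose were 4 IL17 receptor rows, 1 copy each of the IL17 ligands *il17c* and *il17d*, and *il10rb.L*, and those that fell were *IL17REL*, the IL13 decoy *il13ra2.L*, *il4i1.L* and the IL18 receptor accessory chain *il18rap.L*. The balance of directions varied with the setting, with 6 rows higher and 9 lower by voom, and 7 and 7 by DESeq2, when only rIL34 and rctrl libraries of that day were fitted, or without rIL34 replicate 3. It was 3 higher and 7 lower without rIL34 replicate 6. No IL1 ligand, IL6 or IL12 group or IL5 receptor row passed. Libraries of the groups did not overlap for 1 row that was higher and 3 that were lower (6.87% and 3.9% of all tested rows).

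Among IL17 receptor rows, *il17re.S* lay at 28.6 to 57.8 CPM (median 42.4) in rIL34-treated wounds, against 9.02 to 30.9 CPM (median 14.5) in rctrl wounds (log2 fold change 1.34 ± 0.35 (SE), adjusted p = 0.0049). *il17rc.S* lay at 51.5 to 111 CPM (median 87) after rIL34, against 17.5 to 64.1 CPM (median 33.3) (log2 fold change 1.25 ± 0.26 (SE), adjusted p = 0.00065). In each of them the rctrl libraries reached into the range of the rIL34 libraries. *IL17RA* was at 1.07 (adjusted p = 0.012), and at 0.84 (adjusted p = 0.053) without rIL34 replicate 6, within 0.84 to 1.28 (adjusted p 0.00068 to 0.053) over its alternatives. *il17ra.S* was at 0.70 (adjusted p = 0.037) and lost its call without any one of rIL34 replicates 5 and 6 and rctrl replicates 1, 3, 5 and 6, at 0.49 to 0.66 (adjusted p 0.066 to 0.15). Its full range was 0.49 to 0.87 (adjusted p 0.011 to 0.15). *IL17REL* was lower instead, with 4.74 to 7.17 CPM (median 5.41) in rIL34-treated wounds and 7.45 to 28.2 CPM (median 19.3) in rctrl wounds and no overlap (log2 fold change -1.62 ± 0.42 (SE), adjusted p = 0.0045).

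The 2 ligand rows that rose lost their calls without single libraries. *il17c.L* lay at 0.387 to 10.1 CPM (median 0.874) in rIL34-treated wounds, against 0.12 to 1.06 CPM (median 0.671) in rctrl wounds (log2 fold change 2.44 ± 0.79 (SE), adjusted p = 0.02), with replicates 2 and 6 high and the other 4 below 1 CPM. Its call was lost without rIL34 replicate 2, at 2.13 (adjusted p = 0.05), without rIL34 replicate 6, at 1.64 (adjusted p = 0.12), and without rctrl replicate 5, at 2.19 (adjusted p = 0.052). *il17d.L* was at 1.53 (adjusted p = 0.028) on levels of 0.0829 to 0.74 CPM (median 0.293) against 0.0353 to 0.171 CPM (median 0.13). It lost its call without rIL34 replicates 1 or 6 or rctrl replicates 2 or 4, at 1.12 to 1.43 (adjusted p 0.057 to 0.12).

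*il10rb.L* lay at 9.84 to 22.5 CPM (median 15.6) in rIL34-treated wounds, above all rctrl libraries at 3.28 to 8.64 CPM (median 6.85) (log2 fold change 1.30 ± 0.41 (SE), adjusted p = 0.016), while *il10rb.S* was at -0.22 (adjusted p = 0.61). *il13ra2.L* lay at 2.68 to 28.4 CPM (median 16.2), below all rctrl libraries at 31.2 to 78.8 CPM (median 38.3) (log2 fold change -1.47 ± 0.49 (SE), adjusted p = 0.024), with replicates 1 and 6 lowest. Its call was lost without rIL34 replicate 1, at -1.28 (adjusted p = 0.051), without rIL34 replicate 6, at -1.25 (adjusted p = 0.055), and without rctrl replicate 6, at -1.22 (adjusted p = 0.074). *il4i1.L* lay at 13.6 to 41.6 CPM (median 29.7), below all rctrl libraries at 47.8 to 122 CPM (median 80.0) (log2 fold change -1.42 ± 0.41 (SE), adjusted p = 0.0098). *il18rap.L* was at -0.81 (adjusted p = 0.017) on levels of 12.6 to 27 CPM (median 16.9) against 19.8 to 47.6 CPM (median 28.7), and at -0.65 (adjusted p = 0.062) without rctrl replicate 3, within -0.95 to -0.65 (adjusted p 0.0064 to 0.062) over its alternatives. Marker rows of T and NK cells were lower in 7 of 15 cases (54.5 to 119 against 92 to 219 CPM), and those of epidermis were higher in 10 of 12 (5406 to 7912 against 2036 to 5380.0 CPM). No neutrophil row of 12 passed (1060.0 to 1369 against 659.5 to 1194 CPM), and their part in these values was not tested.

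**Figure D3:**
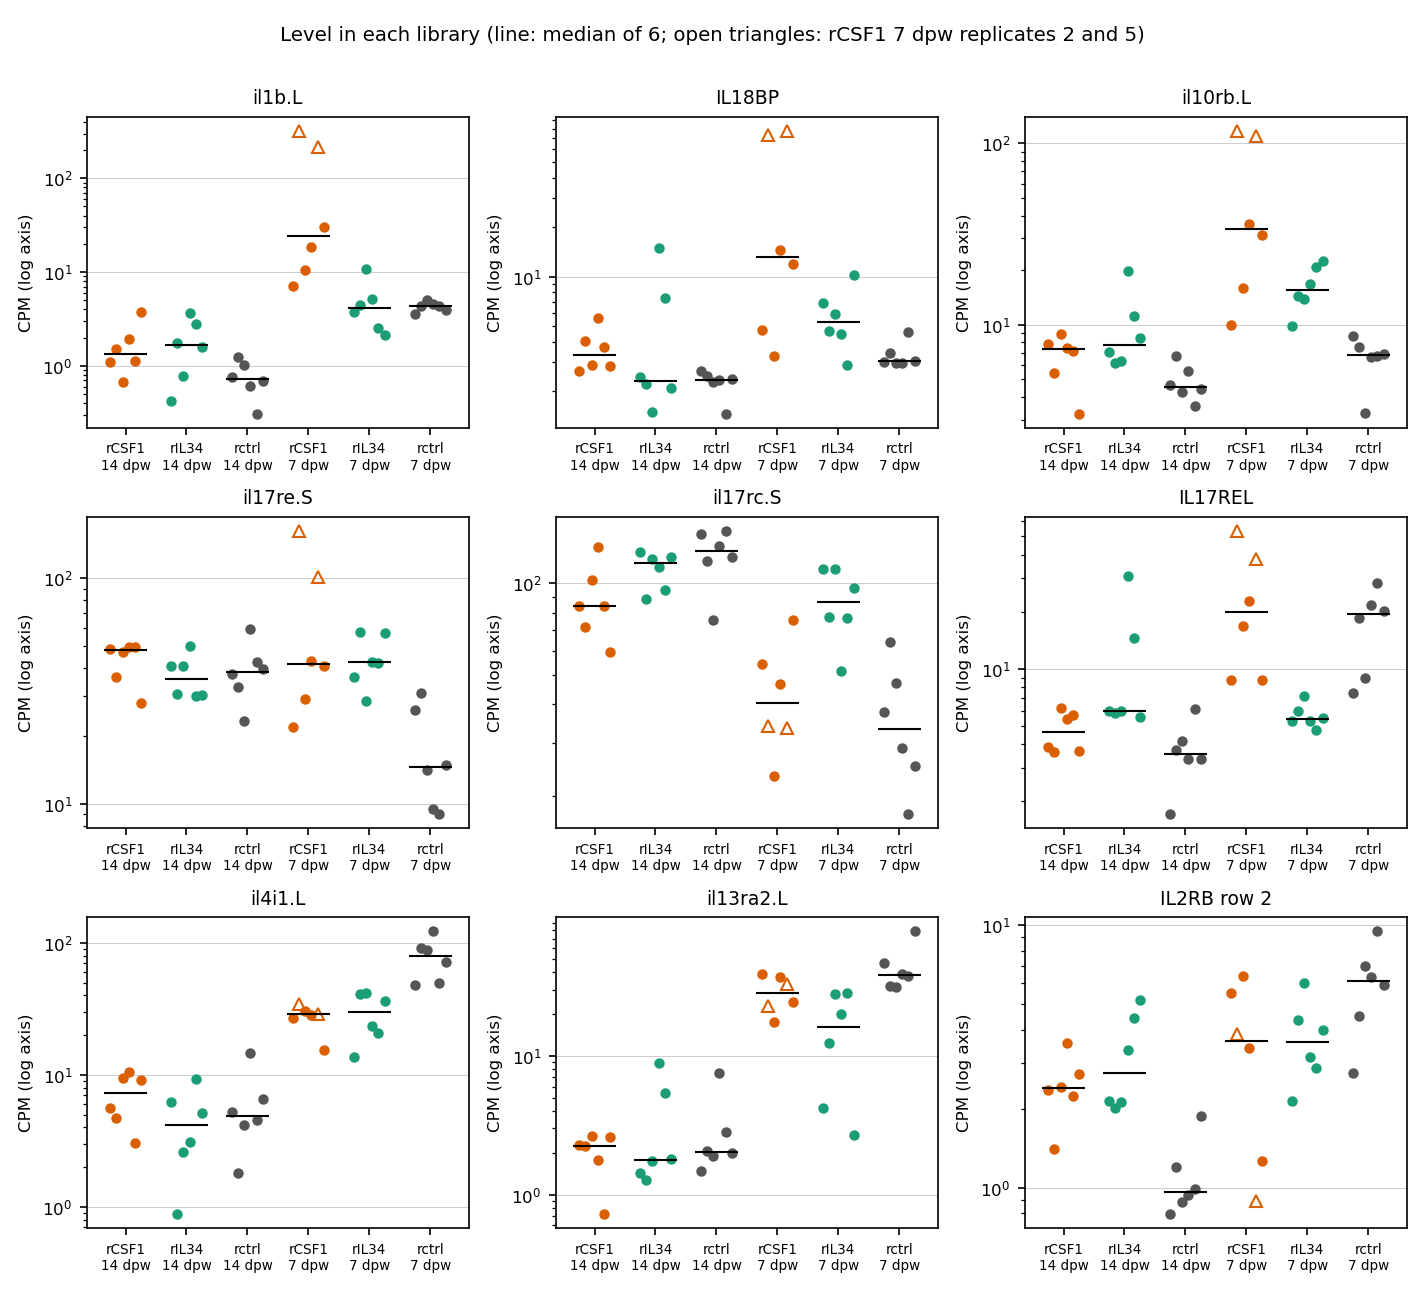
CPM on a log axis in each of the 36 libraries for 9 interleukin rows, by group, with lines for the median of 6. Open triangles are rCSF1 replicates 2 and 5 at 7 dpw. The triangles lie highest for *il1b.L*, *IL18BP*, *il10rb.L*, *il17re.S* and *IL17REL*, at 213 to 320.1 CPM for *il1b.L*. The points of *il4i1.L* are below its rctrl libraries in both cytokine groups at 7 dpw.

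Both cytokine groups were set against the same rctrl libraries, so the values above are not independent of each other, and the cytokines were also compared directly. At 7 dpw, 15 of 56 rows were higher and 1 was lower in rCSF1-treated than in rIL34-treated wounds, where 9.35% and 8.05% of all tested rows were called higher and lower, and the median log2 fold change was 0.49. *il1b.L* lay at 7.12 to 320.1 CPM (median 24.2) in rCSF1-treated wounds, against 2.15 to 10.8 CPM (median 4.09) in rIL34-treated wounds (log2 fold change 4.38 ± 0.71 (SE), adjusted p = 0.00031). *il11.S* lay at 2.04 to 16.8 CPM (median 7.15) after rCSF1, against 0.393 to 2.49 CPM (median 1.64) (log2 fold change 2.32 ± 0.60 (SE), adjusted p = 0.0082). *IL17REL* was the row whose libraries did not overlap (0.808% of all tested rows were higher with no overlap), with 8.69 to 53.2 CPM (median 19.9) after rCSF1 and 4.74 to 7.17 CPM (median 5.41) after rIL34 (log2 fold change 2.12 ± 0.43 (SE), adjusted p = 0.0015). Both copies of *il10rb*, *il1rap*, gp130 and *il17rd* were higher after rCSF1, between 0.72 for *il6st.S* and 1.76 for *il1rap.L*, as were *il18rap.L* at 0.88 (adjusted p = 0.016), *IL18BP* at 2.40 (adjusted p = 0.0046) and *il13ra2.S* at 2.09 (adjusted p = 0.011). *il17rc.S* was lower after rCSF1, with 23.3 to 75.8 CPM (median 40.4) against 51.5 to 111 CPM (median 87) after rIL34 (log2 fold change -0.97 ± 0.26 (SE), adjusted p = 0.011).

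These calls rest on the spread shared by all groups and on the pair of libraries. A fit to the 2 groups alone called 0 rows, with 17 rows, 16 of them higher, below an unadjusted p of 0.05 in edgeR. Without rCSF1 replicates 2 and 5 the count was 4, namely *il1b.L*, *IL17REL*, *il17rd.L* and *il17rd.S*. The higher rows that lost their calls then ran from 0.05 (adjusted p = 0.91) for *il1rap.S* to 1.92 (adjusted p = 0.065) for *il11.S*. Among them *IL18BP* was at 0.58 (adjusted p = 0.49) and *il10rb.L* at 0.52 (adjusted p = 0.36). The lower row *il17rc.S* was at -0.79 (adjusted p = 0.099). Without replicate 2 alone, *il13ra2.S* was at 1.30 (adjusted p = 0.1), *il1rap.L* at 1.35 (adjusted p = 0.068), *il1rap.S* at 0.86 (adjusted p = 0.061) and *il6st.S* at 0.52 (adjusted p = 0.061). Without replicate 5 alone *il1rap.L* was at 1.27 (adjusted p = 0.082) and *il6st.S* at 0.56 (adjusted p = 0.059).

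At 14 dpw, no interleukin row passed the test in any of the 3 comparisons by edgeR. For rCSF1 against rctrl, 14 rows had an unadjusted p under 0.05, 13 of them higher and 1 lower (6.23% and 4.74% of all tested rows), with a median log2 fold change of 0.34, where 0.953% of all tested rows were called in either direction. For rIL34 against rctrl, 21 rows were higher and 0 were lower at that level (4.9% and 3.08% of all tested rows), with a median of 0.41, where 0.0496% of all tested rows were called. For rCSF1 against rIL34, 3 were higher and 3 were lower (7.75% and 5.67%), where 1.24% were called. Without rCSF1 replicates 1, 2 and 6, which held muscle RNA, 0 rows passed against rctrl in edgeR, and 8 had an unadjusted p under 0.05, all of them higher. DESeq2 called 1, 6 and 0 rows in these comparisons and voom 0, 2 and 0. The shares of all tested rows that DESeq2 and voom called are not given, so these counts cannot be set against the edgeR shares above. The row that DESeq2 called after rCSF1 was *il12b.S*, which lay at 1.1 to 3.56 CPM (median 2.4) in rCSF1-treated wounds, against 0.673 to 1.91 CPM (median 0.767) in rctrl wounds, and had 1.31 (unadjusted p = 0.0023, adjusted p = 0.13) in edgeR. The 6 after rIL34 were the second *IL5RA* row, *IL17REL*, both *IL12RB2* rows, the second *IL2RB* row and *il21r.L*, and the 2 *IL12RB2* rows were those of voom.

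These 6 rows had a log2 fold change of at least 1.08 after rIL34 at 14 dpw, while their levels in the libraries differed in shape. The second *IL2RB* row lay at 2.01 to 5.17 CPM (median 2.75) in rIL34-treated wounds, against 0.795 to 1.88 CPM (median 0.964) in rctrl wounds with no overlap, a log2 fold change of 1.52 (unadjusted p = 0.00026, adjusted p = 0.12). The first *IL12RB2* row lay at 4.92 to 10.4 CPM (median 5.84), against 2.3 to 3.97 CPM (median 3.22), again with no overlap, at 1.08 (unadjusted p = 0.00067, adjusted p = 0.15). *il21r.L* lay at 1.22 to 6.8 CPM (median 3.86), against 0.468 to 2.32 CPM (median 1.45), at 1.45 (unadjusted p = 0.00033, adjusted p = 0.13), with replicates 4, 5 and 6 above the others. *IL17REL* lay at 5.6 to 30.7 CPM (median 6.01), against 1.72 to 6.18 CPM (median 3.54), at 1.61 (unadjusted p = 0.00062, adjusted p = 0.14), with replicates 4 and 5 high and the other 4 between 5.6 and 6.03 CPM. *il1b.S* was at 1.97 (unadjusted p = 0.003, adjusted p = 0.24), with 1.1 to 8.54 CPM (median 3.43) against 0.421 to 1.85 CPM (median 0.949). Groups did not overlap for 4 rows that were higher after rCSF1 and 3 after rIL34, where 0.79% and 0.808% of all tested rows were higher with no overlap. These were the second *IL5RA* row, *IL18R1*, *IL18BP* and the first *IL12RB2* row after rCSF1, and the third *IL5RA*, first *IL12RB2* and second *IL2RB* rows after rIL34. Of 15 T and NK cell marker rows 0 were called after rIL34 at 14 dpw in edgeR, and 12 were above rctrl with an unadjusted p below 0.05 (sums of 48.8 to 116 against 31.1 to 49.6 CPM). B cell rows summed to 9.94 to 45.8 against 4.85 to 10.3 CPM, and the part of these cells was not tested.

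Within the cytokine groups, too, more interleukin rows were lower than higher at 14 dpw. After rCSF1, 34 rows were lower and 6 were higher at 14 than at 7 dpw (30.4% and 23.9% of all tested rows), with a median log2 fold change of -1.06. The counts were 28 and 4 without replicates 2 and 5 at 7 dpw and 27 and 3 without replicates 1, 2 and 6 at 14 dpw. After rIL34, 21 rows were lower and 7 were higher (27.1% and 20.4%), with a median of -0.38. Among the largest falls after rCSF1 was that of *il1b.L*, with 0.676 to 3.74 CPM (median 1.33) at 14 dpw and 7.12 to 320.1 CPM (median 24.2) at 7 dpw (log2 fold change -5.89 ± 0.76 (SE), adjusted p = 2.4e-07). Without replicates 2 and 5 at 7 dpw it was at -3.24 (adjusted p = 5.2e-06), within -6.29 to -3.24 (adjusted p 1.2e-19 to 0.0011) over its alternatives. *il11.S* was at -4.73 (adjusted p = 1.4e-06), and at -4.26 (adjusted p = 1.7e-05) without the pair. It lay at 0.0868 to 0.819 CPM after rCSF1 at 14 dpw, and it passed the filter on low values mainly through the 7 dpw libraries, where it was high. The size of its fall is therefore not ranked against the others. *il1b.S* was at -4.88 (adjusted p = 4.3e-07), and at -3.15 (adjusted p = 1.5e-05) without them. The falls of *il13ra2.S*, *il1rap.S* and *IL31RA* after rCSF1 also rested on the pair, with values of -1.42 (adjusted p = 0.03), -0.97 (adjusted p = 0.017) and -1.62 (adjusted p = 0.018), and of 0.57 (adjusted p = 0.31), 0.39 (adjusted p = 0.095) and 0.03 (adjusted p = 0.96) without it. *IL31RA* was at 0.04 (adjusted p = 0.94) without replicate 2 alone. After rIL34, both *il17c* copies were among the rows that fell most. Levels were 0.0664 to 0.507 CPM (median 0.365) at 14 dpw and 0.387 to 10.1 CPM (median 0.874) at 7 dpw for *il17c.L* (log2 fold change -3.28 ± 0.82 (SE), adjusted p = 0.0015). *il17c.S* was at -3.05 (adjusted p = 0.011), and at -2.01 (adjusted p = 0.082) without rIL34 replicate 6 at 7 dpw. It passed the filter on low values mainly through the 7 dpw libraries, where its highest values lay. *IL17REL* rose after rIL34, at 1.01 (adjusted p = 0.045), on replicate 4 at 14 dpw, and without it was at 0.43 (adjusted p = 0.36), within 0.43 to 1.17 (adjusted p 0.022 to 0.36) over its alternatives. *il17d.S* and *IL13RA1* rose at 14 dpw after each preparation, with log2 fold changes of 1.32 and 0.91 after rCSF1, 1.33 and 0.70 after rIL34, and 1.78 and 1.01 after rctrl. After rCSF1, *il17d.S* lost its call with voom at 0.86 (adjusted p = 0.095), without replicates 2 and 5 at 7 dpw at 1.03 (adjusted p = 0.054), and without replicates 1, 2 and 6 at 14 dpw at 0.62 (adjusted p = 0.28). After rIL34, *IL13RA1* lost its call without replicate 3 at 7 dpw, at 0.62 (adjusted p = 0.064), or replicate 5, at 0.60 (adjusted p = 0.059).

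Whether a cytokine acted alike on both days was tested as a contrast of its own, the log2 fold change over rctrl at 14 dpw less that at 7 dpw. For rIL34, 10 rows had a higher and 3 a lower effect at 14 than at 7 dpw (7.55% and 10.9% of all tested rows), with a median difference of 0.54. *IL17REL* differed most, with log2 fold changes over rctrl of 1.61 at 14 dpw and -1.62 at 7 dpw (difference 3.23 (adjusted p = 0.00038)). The second *IL2RB* row followed at 1.52 and -0.67 (difference 2.19 (adjusted p = 0.0032)), then *il21r.L* at 1.45 and -0.73 (difference 2.18 (adjusted p = 0.0027)), the first *IL12RB2* row (1.75 (adjusted p = 0.0027)) and *il18rap.L* (1.71 (adjusted p = 0.0013)). The other rows with a higher effect were the second *IL12RB2* row, the second *IL5RA* row, *IL18R1*, *il18r1.1.L* and *il1r1.S*, and *IL1R1* did not pass, at 0.07 (adjusted p = 0.92). The 3 with a lower effect were *il17rc.S*, at -0.16 and 1.25 (difference -1.41 (adjusted p = 0.0072)), *il17re.S* (-1.42 (adjusted p = 0.041)) and *il17d.L* (-1.90 (adjusted p = 0.047)). *il17d.L* lost its call in 20 of 30 alternatives, 17 of them leaving out 1 library (-2.09 to -1.50 (adjusted p 0.025 to 0.12)). *il17re.S* lost it in 14 of 30, 13 of them leaving out 1 library (-1.67 to -1.25 (adjusted p 0.00061 to 0.08)), and *il1r1.S* in 5, 4 of them without 1 library (0.67 to 0.98 (adjusted p 0.013 to 0.065)). So did the second *IL5RA* row without rIL34 replicate 6 at 14 dpw (1.26 (adjusted p = 0.07)), and *IL18R1* without rctrl replicate 5 at 7 dpw (1.13 (adjusted p = 0.05)). In the same contrast 12 of 15 T and NK cell and 7 of 8 B cell marker rows had a higher effect at 14 dpw, and their part was not tested.

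For rCSF1, 4 rows had a higher and 9 a lower effect at 14 than at 7 dpw (5.51% and 10.5% of all tested rows), with a median difference of 0.06. The lower effects were those of *il1b.L*, *il10rb.L*, *IL18BP*, both copies of *il1rap*, *il17re.S*, *il10rb.S*, *il6st.L* and *il17rd.S*, and the higher ones those of both *IL2RB* rows, *il4i1.L* and *il1r1.S*. *il1b.L* had log2 fold changes over rctrl of 1.11 at 14 dpw and 4.53 at 7 dpw (difference -3.42 (adjusted p = 0.017)), *il10rb.L* of 0.46 and 3.01 (difference -2.55 (adjusted p = 0.0059)), and *il17rd.S* of -0.09 and 1.04 (difference -1.13 (adjusted p = 0.0025)). *il17rd.S* kept its call in all 32 alternatives, at -1.19 to -1.03 (adjusted p 7.7e-06 to 0.044), and it was the sole row of the 13 that did, both without rCSF1 replicates 2 and 5 at 7 dpw and without replicates 1, 2 and 6 at 14 dpw. Leaving out rCSF1 replicate 2 at 7 dpw brought *il1b.L* to -2.53 (adjusted p = 0.067), *IL18BP* to -2.02 (adjusted p = 0.097), *il17re.S* to -1.24 (adjusted p = 0.066) and *il1rap.S* to -1.28 (adjusted p = 0.052). Leaving out replicate 5 brought *IL18BP* to -2.01 (adjusted p = 0.089). Over their alternatives *il1b.L* was at -3.84 to -0.78 (adjusted p 0.0023 to 0.55), *IL18BP* at -2.76 to -0.65 (adjusted p 0.0092 to 0.61), and *il1rap.L* at -2.25 to -0.32 (adjusted p 0.012 to 0.78). *il6st.L* was at -1.26 to -0.20 (adjusted p 0.012 to 0.73), *il10rb.S* at -1.29 to -0.46 (adjusted p 0.014 to 0.48) and *il4i1.L* at 1.54 to 2.18 (adjusted p 0.012 to 0.098), and these 3 and *il1rap.L* lost their calls in 19 to 23 of 32 alternatives, 15 to 17 of them without 1 library. *il1r1.S* lost its call in 10 of 32, 7 of them without 1 library (0.73 to 1.16 (adjusted p 0.017 to 0.1)), and the first *IL2RB* row in 6, 4 of them without 1 library (1.08 to 1.51 (adjusted p 0.011 to 0.13)). The count of 13 was 4 without rCSF1 replicate 2 at 7 dpw, 6 without replicate 5, 8 without rCSF1 replicate 3 at 14 dpw, and 7 without rctrl replicates 1 or 3 at 14 dpw.

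**Figure D4:**
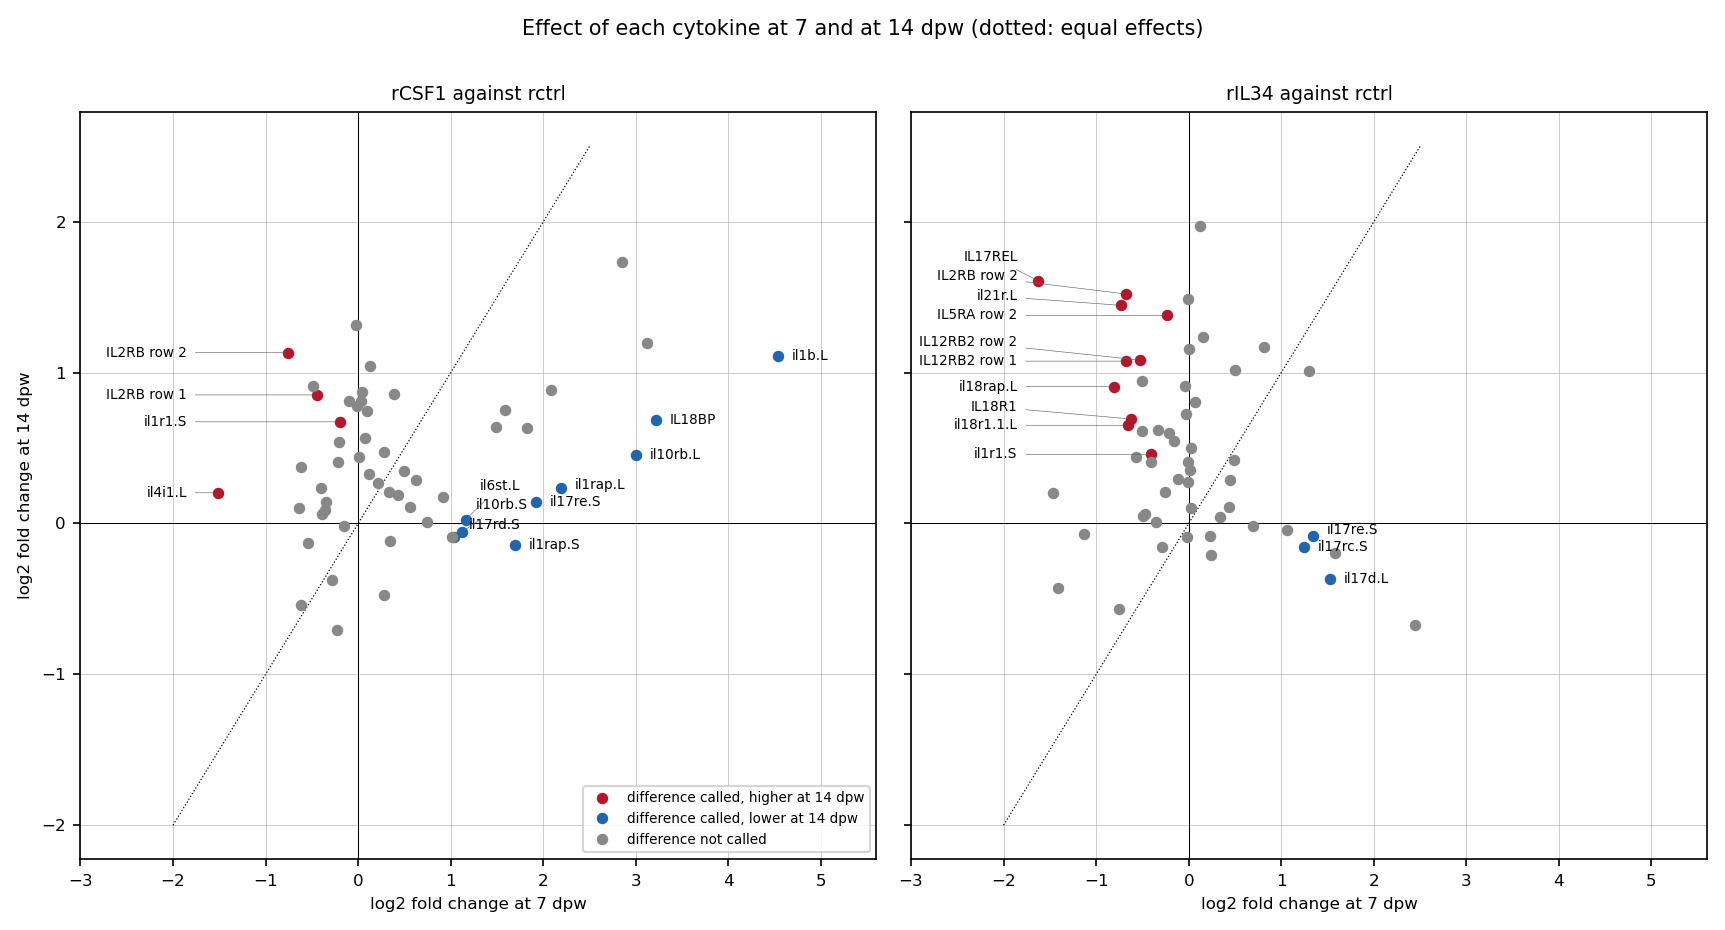
Log2 fold change over rctrl at 14 dpw (vertical axis) against that at 7 dpw (horizontal axis) for the 56 tested interleukin rows, with rCSF1 on the left panel and rIL34 on the right. Labels mark rows whose difference between days passed the test. Points below the diagonal on the rCSF1 panel reach a 7 dpw value of 4.53 for *il1b.L*, and on the rIL34 panel *IL17REL* lies at -1.62 at 7 dpw and 1.61 at 14 dpw.

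The table held both the L and the S copy of 12 interleukin genes. For each the log2 ratio of L over S (0.5 CPM added to both) was compared in 3 contrasts by exact two-sided permutation of the libraries. There were 36 tests in all, which were chosen after the values were seen. The copies of near-identical genes can share reads, so a ratio is uncertain to that extent, and the smallest p that 6 against 6 libraries allow is 0.0022. The ratio differed in 9 of the 36 tests after Benjamini-Hochberg adjustment. For *il13ra2*, encoding the IL13 decoy, it averaged 0.63 at 14 dpw and 4.25 at 7 dpw in rctrl wounds (difference -3.62, exact permutation p = 0.0022, adjusted p = 0.016), where *il13ra2.L* fell and *il13ra2.S* was at -0.21 (adjusted p = 0.78). For *il10rb* it averaged 0.96 after rCSF1 and -0.57 after rctrl at 7 dpw (difference 1.53, exact permutation p = 0.0022, adjusted p = 0.016), and 0.88 after rIL34 against the same rctrl libraries (difference 1.45, adjusted p = 0.016, exact permutation). Without rCSF1 replicates 2 and 5 the *il10rb* difference was 1.22 (exact permutation p = 0.0048, unadjusted).

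Between 14 and 7 dpw in rctrl wounds, the *il10ra* ratio averaged 2.18 and 1.08 (difference 1.10, adjusted p = 0.016, exact permutation) and the *il17rd* ratio -1.30 and -0.29 (difference -1.01, adjusted p = 0.016, exact permutation), in each case with no overlap of libraries. In the same contrast *il21r* and *il1rap* each differed by -0.85 (adjusted p = 0.026 and 0.043, exact permutation) and *il6st* by 0.56 (adjusted p = 0.039, exact permutation). The ninth was *il10ra* after rCSF1 at 7 dpw, at 1.82 against 1.08 in rctrl wounds (difference 0.74, adjusted p = 0.039, exact permutation), and at a difference of 0.48 without replicates 2 and 5 (exact permutation p = 0.043, unadjusted). No contrast of *il1b*, *il6r*, *il5ra*, *il17c* or *il17d* passed. Many values of *il17c* and *il17d* lay near or below the 0.5 CPM added to both copies, which then largely sets the ratio. For *il17d* in rctrl wounds the difference was -0.39, although *il17d.L* had the larger log2 fold change of the copies. The ratio tests of *il17c* and *il17d* therefore cannot decide whether their copies differed.

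**Figure D5:**
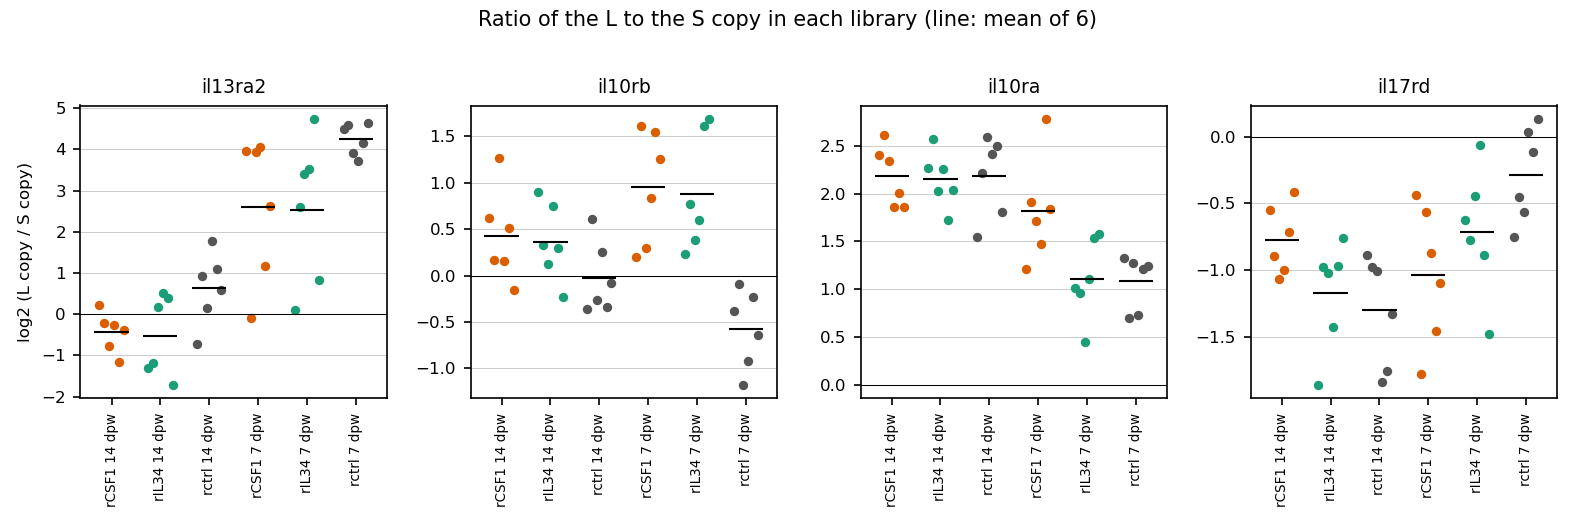
Log2 ratio of the L over the S copy in each library for *il13ra2*, *il10rb*, *il10ra* and *il17rd*, by group, with points for libraries and lines for the mean of 6. The *il13ra2* points average 0.63 at 14 dpw and 4.25 at 7 dpw in rctrl wounds, and the *il10rb* points of both cytokine groups at 7 dpw lie above those of rctrl wounds.

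Genes that carry the interleukin signal inside the cell were taken from a list of pathway genes that is apart from the members, with 59 tested rows. No row was named *traf3ip2*, the adaptor of the IL17 receptors, nor *stat3*, *stat5a* or *crlf2*, so these listed genes have no values here. In rctrl wounds 7 of the 59 pathway rows were higher and 25 lower at 14 than at 7 dpw (22.9% and 26.4% of all tested rows). Among the lower rows were *csf2rb.L* and *csf2rb.S*, the signaling partner of the IL5-binding chain, at -3.14 and -2.50, and *jak3.L*, the kinase bound to the common gamma chain, at -2.15. So were *stat4.L*, the STAT of IL12 signaling, at -2.12, *pycard.L*, an inflammasome adaptor for IL1B processing, at -2.71, and *ebi3.S*, a subunit of IL27, at -2.15. After rCSF1 at 7 dpw 26 were higher and 9 lower, where 20.4% and 14.1% of all tested rows were called higher and lower. The rises lay in the IL1 and Toll adaptors, with 13 of 18 rows higher, such as *myd88.L* at 2.24 and the inhibitory kinase *IRAK3* at 3.41. They also lay in the list of IL17 adaptors and targets, which lacks *traf3ip2*, with 8 of 10 higher, such as *cebpb.L* at 2.79, *cebpd.S* at 2.55 and the RNase gene *zc3h12a.L* at 2.12. Without rCSF1 replicates 2 and 5 the 26 and 9 were 13 and 7, with 5 of 18 IL1 and Toll adaptor rows and 5 of 10 IL17 adaptor rows higher. The share of all tested rows in that fit is not given. In that fit *cebpb.L* was at 1.61 (adjusted p = 0.00065), *cebpd.S* at 1.40 (adjusted p = 0.0035) and *myd88.L* at 0.79 (adjusted p = 0.017). *IRAK3* was at 0.60 (adjusted p = 0.43) and *zc3h12a.L* at 0.33 (adjusted p = 0.66). Of JAK and STAT rows 3 of 14 were higher and 5 lower, and 1 was higher and 5 lower without the pair. *stat4.L* was at -0.85, and at -0.67 (adjusted p = 0.11) without the pair. Of the 8 rows for processing of IL1 and IL18 0 were higher and 4 lower, with *pycard.L* at -0.79, and 1 was lower without the pair. Of 9 partner chain rows 2 were higher and 0 lower, with *csf2rb.L* at 1.76, and 2 were higher and 1 lower without the pair. After rIL34 at 7 dpw 11 were higher and 7 lower (15.8% and 11.2% of all tested rows), and 41 did not pass. Both copies of *traf6* and *tollip* were among the higher rows, and *pycard.L* at -0.92 was among the lower. At 14 dpw 1 row was higher after each cytokine and 0 were lower, and in both comparisons with the shared rctrl libraries that row was *jak3.L*, at 0.99 after rCSF1 and 1.12 after rIL34 (adjusted p = 0.0037 and 0.012, edgeR). The other 58 pathway rows did not pass at 14 dpw, where 0.953% of all tested rows were called after rCSF1 and 0.0496% after rIL34.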

How the data were processed

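The authors deposited 1 table of raw counts, whole read pairs per gene row for 36 libraries, with no normalization. The labels call the molecule polyA RNA, while their protocol and the study's methods describe depletion of ribosomal RNA. By the study's methods and the submitters' processing notes, reads were trimmed with fastp, aligned with minimap2 2.29 to the RefSeq Xenopus_laevis_v10.1 assembly, sorted with SAMtools 1.16.1 and counted over exons with featureCounts 2.1.1. The strand option of the counting is not given in the sources used here, so reads of a gene and an antisense partner cannot be told apart. Of 42675 rows, 417 named uc or NA (0.628% to 2.08% of counts per library) and 1 with no name were left out.

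Rows at 0.5 CPM in at least 10 libraries were tested in 1 fit of all 36 libraries in 6 groups (TMM scaling, edgeR 4.0.16 quasi-likelihood test, R 4.3.3), with Benjamini-Hochberg adjustment over 28225 rows and calls at an adjusted p under 0.05, a test checked on simulated counts. CPM are TMM-scaled and not divided by gene length, so levels compare between libraries and not between genes. Of the 59 rows, 42 matched a unique RefSeq symbol, and 17, those written in capitals, did not. Alternatives were DESeq2 1.42.0, RLE size factors, no filter, limma 3.58.1 voom with quality weights, the compared groups alone, the replicate number as a block, each library left out, and, chosen after seeing the data, 2 settings without the libraries that stood apart. The members, gene lists and marker lists (neutrophil, macrophage, T and NK cell, B cell, mast cell, epidermis, fibroblast, endothelium, skeletal muscle, red blood cell) were chosen with earlier results of these data known. Rows were named by a rule: up to 12 called rows of largest fold change in each comparison with rctrl and in rctrl wounds over time, up to 6 in the others, the other copy of each, and the row of highest mean in each role group. Rows named outside it were chosen after their values were seen.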

Additional observations from a re-analysis of the deposited data

Results flagged for a closer look

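For each of the 36 rows named by the rule, the highest or lowest library of each group of 6 was compared with the rest by Dixon's gap test, 216 groups in all. Chance marks about 1 in 20 groups where values are normally distributed. The test was run on CPM without a log scale, for which that rate need not hold. It marked 23 groups, a count that is therefore not set against chance. rIL34 replicate 3 at 7 dpw was the highest of its group for *il1b.L* (10.8 CPM), *il1b.S* (15.5 CPM), the decoy *il1r2.L* (62.8 CPM), *il6r.S* (17.8 CPM) and the first *IL5RA* row (446 CPM). rIL34 replicate 4 at 14 dpw was the highest for *IL17REL* (30.7 CPM), *il10rb.L* (19.7 CPM) and *il1r2.L* (10.7 CPM), and replicate 6 of that group for *il6r.S* (5.4 CPM). At 14 dpw after rCSF1, replicate 6, which held the most skeletal muscle RNA, was the highest for *il17d.L* (1.71 CPM), *il17d.S* (5.8 CPM) and *il11.S* (0.819 CPM), and replicate 4 for *il1b.S* (7.11 CPM) and *il21r.L* (4.65 CPM). In rctrl wounds at 14 dpw, replicate 4 was the highest for *il4i1.L* (14.5 CPM) and *il13ra2.L* (7.58 CPM) and the lowest for *il21r.S* (1.68 CPM), replicate 6 was the highest for *il12b.S* (1.91 CPM) and the second *IL2RB* row (1.88 CPM), and replicate 5 was the lowest for *IL18BP* (1.45 CPM). In rctrl wounds at 7 dpw, replicate 6 was the highest for *il13ra2.L* (78.8 CPM) and the lowest for *il12b.S* (0.855 CPM), and replicate 5 the highest for *IL18BP* (4.55 CPM).

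The effect of a cytokine differed between days, 14 less 7 dpw and tested in edgeR as a contrast of the 4 groups, for 13 rows after rIL34. On the log2 scale these differences were 3.23 for *IL17REL*, 2.19 for the second *IL2RB* row, 2.18 for *il21r.L*, 1.75 and 1.61 for the first and second *IL12RB2* rows, 1.71 for *il18rap.L*, 1.61 for the second *IL5RA* row, 1.31 for *IL18R1*, 1.31 for *il18r1.1.L*, 0.87 for *il1r1.S*, -1.41 for *il17rc.S*, -1.42 for *il17re.S* and -1.90 for *il17d.L*. For 13 rows after rCSF1 they were -3.42 for *il1b.L*, -2.55 for *il10rb.L*, -2.53 for *IL18BP*, -1.95 for *il1rap.L*, -1.83 for *il1rap.S*, -1.78 for *il17re.S*, -1.18 for *il10rb.S*, -1.14 for *il6st.L*, -1.13 for *il17rd.S*, 0.87 for *il1r1.S*, 1.30 and 1.89 for the first and second *IL2RB* rows, and 1.72 for *il4i1.L*.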

How the results depend on the processing

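Counts of called interleukin rows that moved by over 1.5 times were as follows, and their causes were not tested beyond what each setting changes. For rCSF1 against rctrl at 7 dpw the 19 rows were 12 with voom and 7 without rCSF1 replicates 2 and 5. For rCSF1 against rIL34 at 7 dpw the 16 were 9 with voom, 0 with the compared groups alone and 4 without those replicates. At 14 dpw the 0 of rCSF1 against rctrl was 1 with DESeq2, and that of rIL34 against rctrl was 6 with DESeq2, 2 with voom and 1 (*il21r.L*) without rIL34 replicate 1. For the difference of the rCSF1 effect between days, the 13 were 8 with the replicate block, 4 with voom, 1 without rCSF1 replicates 2 and 5 at 7 dpw and 1 without rCSF1 replicates 1, 2 and 6 at 14 dpw. With each library left out in turn, the counts ran from 16 to 22, 9 to 14 and 12 to 19 at 7 dpw for rCSF1 against rctrl, rIL34 against rctrl and rCSF1 against rIL34, from 0 to 0, 0 to 1 and 0 to 0 for these at 14 dpw, from 35 to 41, 23 to 29 and 37 to 41 for 14 against 7 dpw after rCSF1, rIL34 and rctrl, and from 4 to 18 and 9 to 16 for the differences of the rCSF1 and rIL34 effects.

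Directions reversed for rows that had not passed: *il17d.S* after rIL34 at 7 dpw was at -0.05 without rIL34 replicate 1 and ran up to 0.48 with other libraries left out, and *il13ra2.S* was at 0.02, 0.06, 0.16 and 0.07 without rIL34 replicates 2, 4, 5 and 6 and at 0.11 and 0.14 without rctrl replicates 4 and 6, and down to -0.40 with another left out. *il13ra2.S* at 14 over 7 dpw after rCSF1, which had passed, was at 0.31 with voom and 0.57 without rCSF1 replicates 2 and 5. In the same comparison *il1rap.S*, which had passed, was at 0.19 and 0.39 under these settings, and *IL31RA* at 0.03 without both replicates.

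With the replicate number as a block the counts were 18, 10 and 16 at 7 dpw for rCSF1 against rctrl, rIL34 against rctrl and rCSF1 against rIL34, 0 for each at 14 dpw, 34, 28 and 41 for 14 against 7 dpw after rCSF1, rIL34 and rctrl, and 8 and 13 for the differences of the rCSF1 and rIL34 effects. The labels give no shared animal or batch for a number, and deviations of same-numbered libraries correlated at between -0.207 and 0.339, so the numbers were not taken to pair the libraries.

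Rows with few counts, such as *il17d.L*, *il17c.L* and the untested *il10* and *il21.S*, are those that depth limits most.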
